A study of Mus musculus with 16 samples.

Results

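The immediate early response genes described here are 10 genes measured in mouse mammary tumors, *Fos*, *Fosb*, *Jun*, *Junb*, *Atf3*, *Egr1*, *Nr4a1*, *Ier2*, *Dusp1* and *Zfp36*. They were chosen by name from what is known of the class, with earlier results of these data known. All 10 were found among the 23609 genes of the table. Total RNA of primary mammary tumors was sequenced in 2 groups of littermates. All animals carried the MMTV-PyMT transgene, in which the mouse mammary tumor virus promoter drives the polyoma middle T antigen in mammary epithelium. The wildtype x PyMT animals carried no change in *Resf1*, and the gene trap x PyMT animals were MMTV-PyMT/Resf1 +/-. Their trap is an enhancer and gene trap that a lentivirus carried into the first exon of *Resf1*, where it also makes an EGFP-Cre fusion. The trap came from a C57BL/6 line and the animals were F1 offspring of a cross with FVB/MMTV-PyMT, so all tumors shared that mixed background. The tumors were profiled as bulk tissue, stroma and blood included, and no treatment was given. Ages were not given in the sources used here. The labels name 8 tumors per group, and 5 wildtype and 5 gene trap tumors were used.

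Immediate early genes are transcribed within minutes of a signal, without new protein synthesis, because the transcription factors that start them are already present in the cell. Growth factors, stress and cell injury reach them through the ERK, JNK and p38 kinases, serum response factor with its ternary complex factors, and CREB, and their mRNAs are short-lived. The FOS, JUN and ATF proteins pair to form the AP-1 transcription factor, EGR1 and NR4A1 bind DNA on their own, and DUSP1 and ZFP36 switch the response off again. In mammary tumors driven by middle T, SRC, PI3K and RAS signaling act on the same pathway. The class is also known to respond to the excision, warming and handling of tissue. The labels give no time between excision and lysis, and the part of tissue handling in the values below was not tested.

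The values are normalized counts per gene, and their column totals were 31995078 to 42153593, with the read depth of each tumor unknown. There were 0 zeros. Gene trap tumor 2 stood apart from the other 9 on the first principal component of all tested genes, which held 31.1% of the variance (91.8 against -18.6 to -4.78), and its 20 most abundant genes held 36.6% of the total against 21.2% to 29%. *Resf1* itself was 3517 to 4487 in wildtype tumors and 3066 to 4029 in gene trap tumors, so the ranges of the targeted gene overlapped (p = 0.0635 by exact two-sided permutation). Its mean was lower in gene trap tumors, 3516 ± 361 against 4099 ± 400 (SD, n = 5 each). By qRT-PCR the study reports reduced *Resf1* mRNA in gene trap tumors. Epithelial markers were present in every tumor, and the 8 of them (*Epcam*, *Cdh1*, *Krt8*, *Krt18*, *Krt19*, *Cldn3*, *Cldn7* and *Elf3*) summed to 80024 to 105526 in wildtype and 83521 to 112741 in gene trap tumors. Group differences of the early genes, and correlations among these genes, are summarized with and without gene trap tumor 2. The spread within groups is given only with that tumor included. The same holds for correlations of other genes, gene lists and tumor measures with the early genes. The part of gene trap tumor 2 in those values was not tested.

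The promoters are shown first, as a description of sequence only. RefSeq entries on build GRCm38.p6 were found for 8 of the 10 genes, all except *Egr1* and *Ier2*, and the 250 bases upstream of the start site were searched on both strands. The 4 upstream regions printed whole belong to genes whose values varied together across tumors, as described further on. Capitals mark the cAMP response element core TGACG, or its reverse complement CGTCA, except in *Zfp36*, where they mark a CArG box, the element bound by serum response factor. The regions are chr12:85473640-85473889 on the plus strand for *Fos*, chr17:26508473-26508722 on the minus strand for *Dusp1*, chr15:101266596-101266845 on the plus strand for *Nr4a1* and chr7:28379229-28379478 on the minus strand for *Zfp36*.
Fos: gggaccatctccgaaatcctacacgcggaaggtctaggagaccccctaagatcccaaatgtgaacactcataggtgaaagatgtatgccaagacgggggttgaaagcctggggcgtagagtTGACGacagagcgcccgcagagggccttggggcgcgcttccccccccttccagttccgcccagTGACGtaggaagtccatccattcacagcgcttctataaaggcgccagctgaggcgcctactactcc
Dusp1: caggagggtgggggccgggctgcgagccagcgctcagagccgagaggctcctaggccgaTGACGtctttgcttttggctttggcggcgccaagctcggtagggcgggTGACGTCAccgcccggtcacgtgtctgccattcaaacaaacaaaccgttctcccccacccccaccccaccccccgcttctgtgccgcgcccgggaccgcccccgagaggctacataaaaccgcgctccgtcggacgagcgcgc
Nr4a1: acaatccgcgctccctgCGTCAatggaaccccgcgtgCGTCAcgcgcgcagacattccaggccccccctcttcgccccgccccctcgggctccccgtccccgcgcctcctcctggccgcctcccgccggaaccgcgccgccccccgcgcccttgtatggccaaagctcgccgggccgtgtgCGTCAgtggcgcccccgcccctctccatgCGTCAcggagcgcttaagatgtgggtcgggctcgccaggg
Zfp36: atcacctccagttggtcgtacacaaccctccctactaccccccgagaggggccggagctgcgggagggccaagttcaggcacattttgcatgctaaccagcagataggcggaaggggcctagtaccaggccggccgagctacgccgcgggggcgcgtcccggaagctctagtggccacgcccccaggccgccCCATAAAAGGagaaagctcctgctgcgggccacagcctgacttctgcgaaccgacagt
The core began 129 and 66 bases before the start site in *Fos*, and in *Nr4a1* there were 4 of them, 233, 213, 69 and 40 bases before it. In *Dusp1* a core lay 191 bases upstream and a full element, TGACGTCA, 143 bases upstream. The full element holds the core on each strand, so these matches overlap. *Zfp36* had the CArG box 58 bases before its start and no such core in this window.

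The core also lay in front of *Fosb*, *Junb* and *Atf3*, and these are shown with the bases around them because the 3 genes belong to the same AP-1 family as *Fos*. The windows are chr7:19310088-19310117, chr8:84978837-84978866 and chr1:191183334-191183352, all on the minus strand of GRCm38.p6.
Fosb: tggagttgcgggTGACGcaagcgcgggggc
Junb: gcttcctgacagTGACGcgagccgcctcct
Atf3: ttaatagcattaCGTCAgc
It was 60, 106 and 7 bases before the start site in these 3 genes. In all, 6 of the 8 regions held TGACG, against 17.8% of 32851 RefSeq promoter windows of the same length, and the full element in *Dusp1* compares with 1.55% of windows. The CArG box was in 1 of 8, *Zfp36*, against 1.47% of windows, and sequence beyond these 250 bases was not searched. The EGR site GCGGGGGCG was in 3 of 8 (*Fosb*, *Nr4a1* and *Zfp36*) against 2.57%, and the ETS core CCGGAA in *Nr4a1* and *Zfp36* against 12%. The AP-1 letters TGAGTCA or TGACTCA were in 0 of 8 against 4.46%. The GC box GGGCGG was in 7 of 8 against 32.7%, and TATAAA in *Fos* only, 33 bases before its start, against 12.4%. A G-quadruplex pattern, 4 runs of at least 3 guanines, was in 5 of 8 (*Atf3*, *Dusp1*, *Fosb*, *Jun* and *Nr4a1*) against 16.7%. The study proposes that RESF1 sits mainly at quadruplexes of transcribed sequences and not at those of control elements. This search covered upstream bases only and does not bear on those sites. EGR sites and GC boxes can overlap and so can GC boxes and G-quadruplex patterns, and a match is only a match of letters. The 8 regions held 58.4% (*Fos*) to 74.4% (*Nr4a1*) G and C, and the RefSeq windows were not matched for this. The part of base composition in these shares was not tested.

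Per kilobase of principal transcript, the most abundant of the 10 were *Junb*, with 1282 ± 472 normalized counts per kb (SD, n = 10 tumors), *Ier2*, with 1190 ± 354.2, and *Fos*, with 1160 ± 583.1. *Jun* followed with 810.2 ± 196.9 per kb. Each of these neighbors differed by less than the larger of their SDs, and *Junb* exceeded *Ier2* in 6 of 10 tumors. A second tier held *Zfp36* (492.1 ± 213.6 per kb), *Nr4a1* (395 ± 143.7), *Dusp1* (315.4 ± 177.4) and *Atf3* (257 ± 85), again with neighbors closer than their SD. *Egr1* came next at 147.2 ± 104.6 per kb, on its longer principal transcript, and *Fosb* was lowest at 30.69 ± 14.54. *Fosb* was below *Egr1* in 10 of 10 tumors.

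*Fos* (ENSMUSG00000021250, chromosome 12), the partner that lets JUN bind AP-1 sites tightly, was lower in gene trap tumors in its group mean and had the largest difference of the 10. It kept that place in 14 of 19 alternative fits, and *Egr1* had the largest difference in the other 5. Its normalized counts were 2965, 2919, 1531, 5416 and 2839 in wildtype tumors 1 to 5, and 1818, 975.2, 1819, 2284 and 1884 in gene trap tumors 1 to 5. Of the wildtype tumors, 4 lay above every gene trap tumor and the remaining one, tumor 3, lay below all of them except tumor 2, so the groups overlapped. The means were 3134 ± 1409 and 1756 ± 477.8 (SD, n = 5 each). The log2 fold change, gene trap minus wildtype, was -0.77 (SE 0.29), a level 41.5% lower, and the unadjusted p of limma was 0.0218 with a Benjamini-Hochberg adjusted p of 0.9997 over all genes tested. In bulk tissue, fewer cells that express a gene and less RNA per cell cannot be told apart. The exact two-sided permutation p was 0.0397, where the smallest that 252 arrangements allow is 0.00794. Without wildtype tumor 4 the exact p was 0.0952, and without gene trap tumor 2, the lowest, it was 0.111.

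The other FOS family member of the 10 had similar group means. *Fosb* (ENSMUSG00000003545, chromosome 7) was 72.5, 194.4, 126.8, 119.1 and 51.95 in wildtype and 164.4, 44.39, 63.09, 146.8 and 177.1 in gene trap tumors. It was highest in wildtype tumor 2 and lowest in gene trap tumor 2, a 4.38-fold range, and the groups overlapped throughout. The means were 113 ± 55.28 and 119.2 ± 61.05 (SD, n = 5 each), with a log2 fold change of 0.02 (SE 0.44).

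*Jun* (ENSMUSG00000052684, chromosome 4) and *Junb* (ENSMUSG00000052837, chromosome 8) encode JUN proteins that pair with FOS, JUNB being the weaker activator. *Jun* was 2345, 2664, 2399, 3633 and 1851 in wildtype and 1930, 3374, 1877, 2674 and 3088 in gene trap tumors. *Junb* was 2395, 2822, 1510, 3960 and 1621 in wildtype and 1307, 3398, 1901, 1994 and 2281 in gene trap tumors. Both were highest in wildtype tumor 4, with gene trap tumor 2 the next highest, although that same tumor had the lowest *Fos*. Group means of *Jun* were 2579 ± 658.5 and 2589 ± 673.4 (SD, n = 5 each), and its log2 fold change of 0.00 (SE 0.20) changed sign with the scaling between tumors (-0.0012 with TMM factors). For *Junb* the means were 2462 ± 998.8 and 2176 ± 769.4, with a log2 fold change of -0.15 (SE 0.28). *Jun* overlaps the antisense gene *Junos* and *Junb* overlaps *Prdx2*, and the strand setting of the counting was not given, so reads of overlapping genes cannot be told apart.

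*Atf3* (ENSMUSG00000026628, chromosome 1), a stress-induced member of the ATF family that often represses, was 367.9, 447.1, 542.3, 833 and 540.7 in wildtype tumors and 392.7, 313, 355.4, 716 and 591 in gene trap tumors. High values were found in tumors of both groups. The means were 546.2 ± 176 and 473.6 ± 172.4 (SD, n = 5 each) and the log2 fold change was -0.22 (SE 0.25).

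The zinc finger factor *Egr1* (ENSMUSG00000038418, chromosome 18) was even among gene trap tumors and uneven among wildtype tumors. It was 1040, 570, 282.1, 1855 and 619.4 in wildtype tumors and 424.6, 434.6, 595.2, 390.2 and 390.2 in gene trap tumors. Wildtype tumor 4 was 6.58 times wildtype tumor 3, the largest range of the 10 genes, and both ends of it belonged to the wildtype group. The means were 873.3 ± 611.8 and 447 ± 85.27 (SD, n = 5 each). On the log2 scale the fold change was -0.70 (SE 0.39), with an unadjusted limma p of 0.0938 and an exact permutation p of 0.19.

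*Nr4a1* (ENSMUSG00000023034, chromosome 15), an orphan nuclear receptor, had the same shape. Its values were 1277, 796.2, 727.4, 1905 and 1206 in wildtype and 747.6, 787.7, 939.5, 843.5 and 854.6 in gene trap tumors. Wildtype tumors 1, 4 and 5 lay above every gene trap tumor and wildtype tumor 3 lay below every one. The means were 1182 ± 471.1 and 834.6 ± 72.89 (SD, n = 5 each), and the log2 fold change was -0.42 (SE 0.22, exact permutation p = 0.151).

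*Ier2* (ENSMUSG00000053560, chromosome 8), a nuclear protein of the early growth factor response, was 2135, 1765, 1265, 3014 and 1538 in wildtype and 1254, 2238, 1371, 1760 and 1769 in gene trap tumors. The gene trap tumors came in the same order as for *Junb*, with tumor 2 highest and tumor 1 lowest. The means were 1943 ± 677.9 and 1679 ± 388.2 (SD, n = 5 each), and the log2 fold change was -0.18 (SE 0.22).

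The feedback genes were uneven in the same wildtype tumors. *Dusp1* (ENSMUSG00000024190, chromosome 17), a phosphatase that inactivates the MAP kinases, was 899.8, 557.4, 386.4, 1521 and 565 in wildtype and 508.9, 309.6, 621.9, 400.7 and 505.9 in gene trap tumors. *Zfp36* (ENSMUSG00000044786, chromosome 7), which binds AU-rich elements and speeds the decay of cytokine and early gene mRNAs, was 2100, 1314, 742.8, 2710 and 1486 in wildtype and 938.2, 1119, 1138, 1094 and 1088 in gene trap tumors. For *Zfp36*, 4 wildtype tumors lay above all gene trap tumors and wildtype tumor 3 lay below all. Means were 785.9 ± 451.2 and 469.4 ± 118.8 for *Dusp1*, and 1671 ± 756.2 and 1076 ± 79.34 for *Zfp36* (SD, n = 5 each). The log2 fold changes were -0.61 (SE 0.32, exact permutation p = 0.151) and -0.51 (SE 0.27, exact permutation p = 0.175). *Dusp1* overlaps *Gm8225* and *Ergic1*, and *Zfp36* overlaps *Gm44710*, in the annotation.

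**Figure D1:**
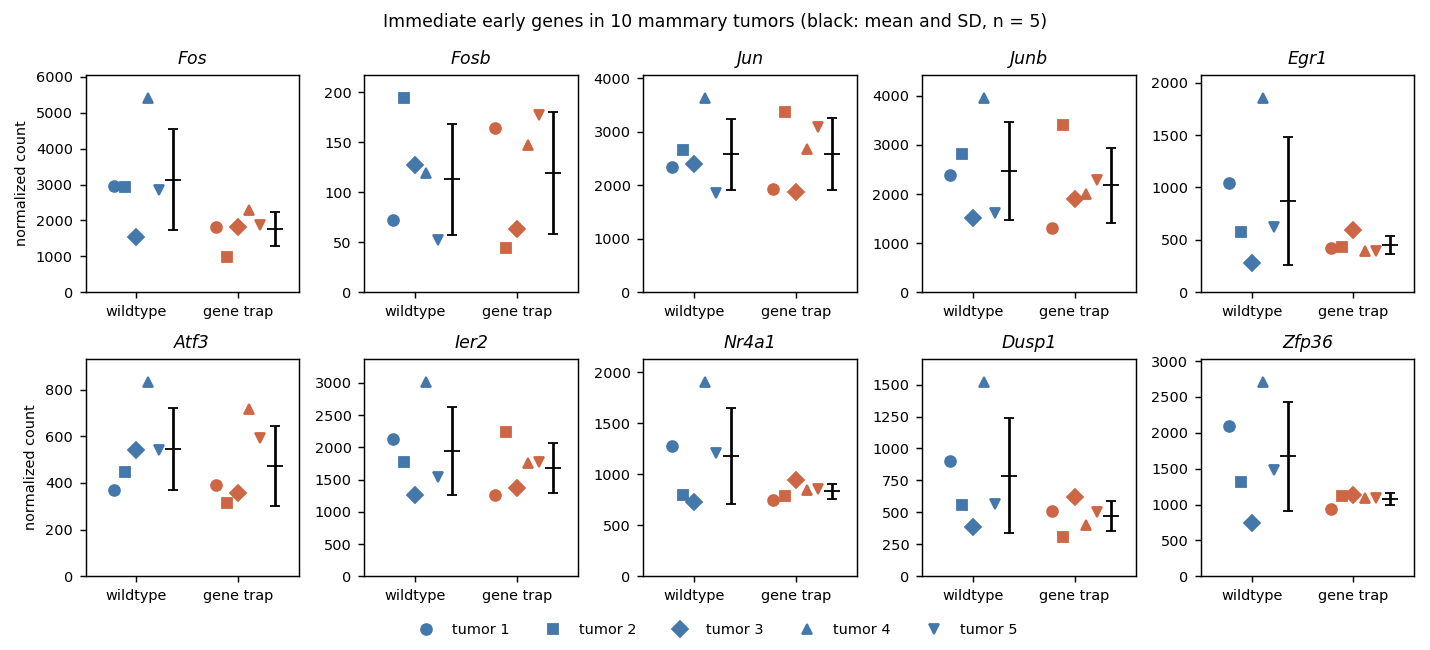
Normalized counts of the 10 immediate early genes in 5 tumors of wildtype x PyMT mice (blue) and 5 of gene trap x PyMT mice (orange), 1 panel per gene with its own axis from 0. Each symbol is 1 tumor, the symbol shape is its number within its own group, and black bars are the mean and SD. Wildtype tumor 4 (blue upward triangle) is the highest point in 9 of 10 panels.

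Over the 10 genes, 8 had a negative and 2 a positive log2 fold change, and its median was -0.32, while 48.6% of all 21034 tested genes were lower and their median was 0.0047. By limma with Benjamini-Hochberg adjustment 0 of the 10 had an adjusted p under 0.05, and the share among all tested genes was 0%. At an unadjusted p under 0.05 the count was 1 of 10, *Fos*, against 2.28% of all tested genes and 0.956% in the lower direction. Only 0.746% of tested genes had a lower log2 fold change than *Fos*. Values did not overlap between the groups for 0 of the 10, against 0.528% of tested genes. Without wildtype tumor 4, 7 of 10 were lower with a median of -0.14. In that fit 0 passed the unadjusted threshold, against 1.46% of all tested genes. Without gene trap tumor 2, 9 of 10 were lower with a median of -0.36, and again 0 passed that threshold, against 1.89%. Leaving out wildtype tumor 3, the wildtype tumor with the lowest early gene values, moved the count the other way. Then 9 of 10 were lower with a median of -0.44, and 5 passed the unadjusted limma threshold (*Fos*, *Egr1*, *Nr4a1*, *Dusp1* and *Zfp36*), against 2.05% of all tested genes in that fit. Without wildtype tumor 2 the count was 2 (*Fos* and *Nr4a1*), against 2.86% of all tested genes. It was 1 when any of the other 6 tumors was left out, against 2.06% to 3.3%.

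The 10 genes were then followed tumor by tumor. Each gene's log2 value was centered on its mean over the 10 tumors, and the mean of these deviations over the 10 genes is called the early gene mean of a tumor. It was 0.25, 0.14, -0.39, 0.97 and -0.08 in wildtype tumors 1 to 5, and -0.29, -0.33, -0.24, -0.04 and 0.01 in gene trap tumors 1 to 5. Wildtype tumor 4 stood highest, and it was the highest tumor for 9 of 10 genes, with only *Fosb* higher elsewhere. Wildtype tumor 3 stood lowest and was above the gene's median for 2 of 10 genes, and gene trap tumor 1 for 1 of 10. The group means were 0.18 ± 0.50 and -0.18 ± 0.15 (SD, n = 5 each). Their difference was -0.35, and -0.16 without wildtype tumor 4.

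**Figure D2:**
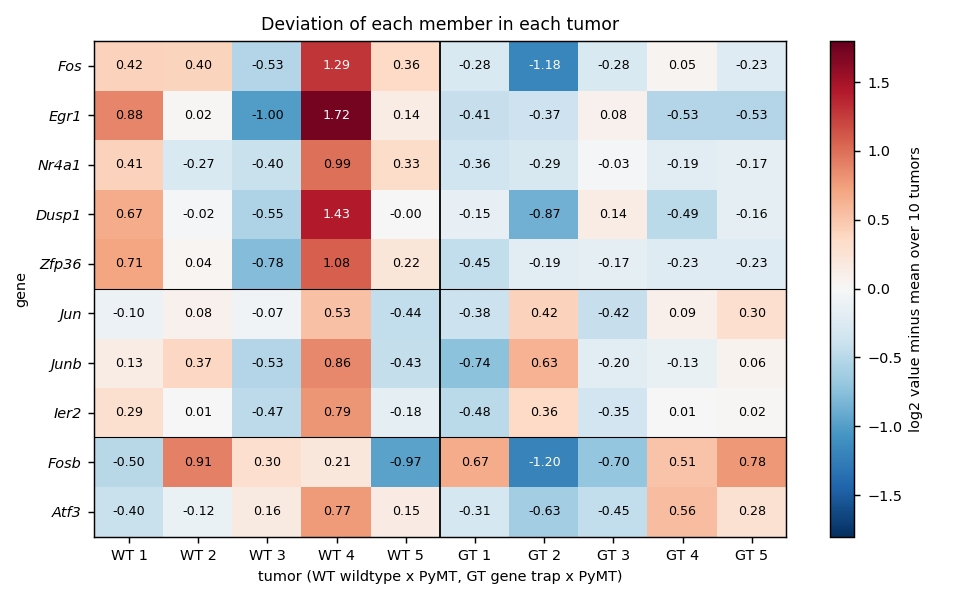
Heat map of the log2 value of each gene (rows) in each tumor (columns, WT wildtype x PyMT, GT gene trap x PyMT) minus the gene's mean over 10 tumors. Red is above the mean and blue below. The column of WT 4 is red in every row, from 0.21 for *Fosb* to 1.72 for *Egr1*, and GT 2 is blue for *Fos* (-1.18) and red for *Junb* (0.63).

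Gene trap tumor 2 split the genes. Relative to their means over the 10 tumors, *Fos* (-1.18), *Fosb* (-1.20), *Dusp1* (-0.87), *Atf3* (-0.63), *Egr1* (-0.37), *Nr4a1* (-0.29) and *Zfp36* (-0.19) were low there on the log2 scale, and *Junb* (0.63), *Jun* (0.42) and *Ier2* (0.36) were high. It was the lowest of the 10 tumors for *Fos*, *Fosb*, *Atf3* and *Dusp1*. Wildtype tumor 4 did not stand apart from the other wildtype tumors in its total (36663795 against 32151583 to 37121386) or in the share of its 20 most abundant genes (28.1% against 22% to 29%), and its share of counts in pseudogenes was the lowest of the 5 (4.39% against 4.54% to 4.91%). The early gene mean had an r of 0.10 with the column total, 0.07 with the share of the 20 most abundant genes, 0.09 with the share in pseudogenes and -0.29 with the first principal component, over the 10 tumors. These were, without wildtype tumor 4, -0.11, -0.11, 0.29 and -0.38.

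Co-variation over tumors was measured for all 45 pairs by Pearson's r of log2 values with a two-sided permutation p (100000 resamples, n = 10 tumors). The mean r was 0.46, with a range of -0.26 to 0.97 and 40 of 45 positive. After Benjamini-Hochberg adjustment over the 45 pairs, 14 had a permutation p under 0.05, and 17 before adjustment. The share of pairs among all tested genes that would pass was not computed, so these counts have no background beside them. By Spearman's rho the mean was 0.34, 35 were positive and 10 pairs passed, all of them among the 14. On deviations from the group means, which hold no difference between the groups, the mean r was 0.44 and 11 pairs passed.

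The pairs fell into a pattern that was described after the values were seen. *Fos*, *Egr1*, *Nr4a1*, *Dusp1* and *Zfp36* varied together, and all 10 pairs among them passed, with r from 0.80 to 0.97 and rho from 0.70 to 0.95. *Fos* was the least firmly placed. By Spearman's rho 9 of the 10 passed, all except *Fos* with *Egr1* (adjusted permutation p = 0.106). On deviations from the group means 7 of the 10 passed, and the others were *Fos* with *Egr1*, *Nr4a1* and *Zfp36*. The closest pair was *Egr1* and *Zfp36*, an activator of transcription and a factor of mRNA decay, with r = 0.97 (permutation p = 8e-05, adjusted p = 0.0027) and rho = 0.95 (permutation p = 0.00012). Leaving out wildtype tumors 4 and 1, the farthest from the median of *Egr1*, gave r = 0.88. For the 10 pairs r lay between 0.50 and 0.88 without the 2 tumors farthest from the median of the first gene. By the median of the second gene it lay between 0.44 (*Dusp1* with *Zfp36*) and 0.95 (*Egr1* with *Dusp1*). Without wildtype tumor 4 it lay between 0.60 and 0.95.

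*Jun*, *Junb* and *Ier2* formed the other group, and all 3 pairs passed with r from 0.79 to 0.92. By Spearman's rho 1 of the 3 passed, *Junb* with *Ier2*, since the adjusted permutation p of *Jun* was 0.0741 with *Junb* and 0.0774 with *Ier2*. Without wildtype tumor 4 and gene trap tumor 2 together 0 of the 3 passed. *Junb* and *Ier2* had r = 0.92 (permutation p = 0.00026, adjusted p = 0.00292) and rho = 0.95 (permutation p = 0.00012). The r was 0.84 without wildtype tumor 4 and gene trap tumor 1, the farthest from the median of *Junb*. Between these 3 genes and the 5 above, 1 of 15 pairs passed, *Ier2* with *Zfp36* (r = 0.80, permutation p = 0.00478, adjusted p = 0.0196, rho = 0.62). The mean r of those 15 pairs was 0.44 over all tumors, 0.01 without wildtype tumor 4 and 0.67 without gene trap tumor 2. *Fos* and *Jun*, the classic AP-1 partners, had r = 0.10 (permutation p = 0.782) and rho = 0.08 (permutation p = 0.838). Single tumors decided that value, which was -0.42 without wildtype tumor 4, 0.52 without gene trap tumor 2 and 0.03 without both.

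*Fosb* and *Atf3* belonged to neither group. Of their pairs, 0 of 10 with the first group and 0 of 6 with the second passed, and their own pair did not. *Fosb* had r from -0.26 (with *Nr4a1*) to 0.47 (with *Atf3*, permutation p = 0.166), and its r with the mean of the other 9 genes was -0.00. *Atf3* had its highest r with *Fos* (r = 0.60, permutation p = 0.0609, rho = 0.43, permutation p = 0.219), which became -0.08 without wildtype tumor 4 and gene trap tumor 2.

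The mean r over all pairs rested largely on wildtype tumor 4. Without it the mean r over the 45 pairs was 0.18, 26 were positive, and 4 pairs passed at n = 9 by exact permutation. Those were *Egr1* with *Zfp36* (r = 0.95), *Nr4a1* with *Zfp36* (r = 0.87), *Egr1* with *Nr4a1* (r = 0.84) and *Junb* with *Ier2* (r = 0.88), all among the 14. Without gene trap tumor 2 the mean r was 0.54 and 22 pairs passed, among them all 14, and the added ones joined *Junb* or *Ier2* to *Fos*, *Egr1*, *Nr4a1*, *Dusp1* or *Zfp36*. Leaving out both tumors gave a mean r of 0.26, with 5 pairs past the threshold, all within the group of *Fos*, *Egr1*, *Nr4a1*, *Dusp1* and *Zfp36*.

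**Figure D3:**
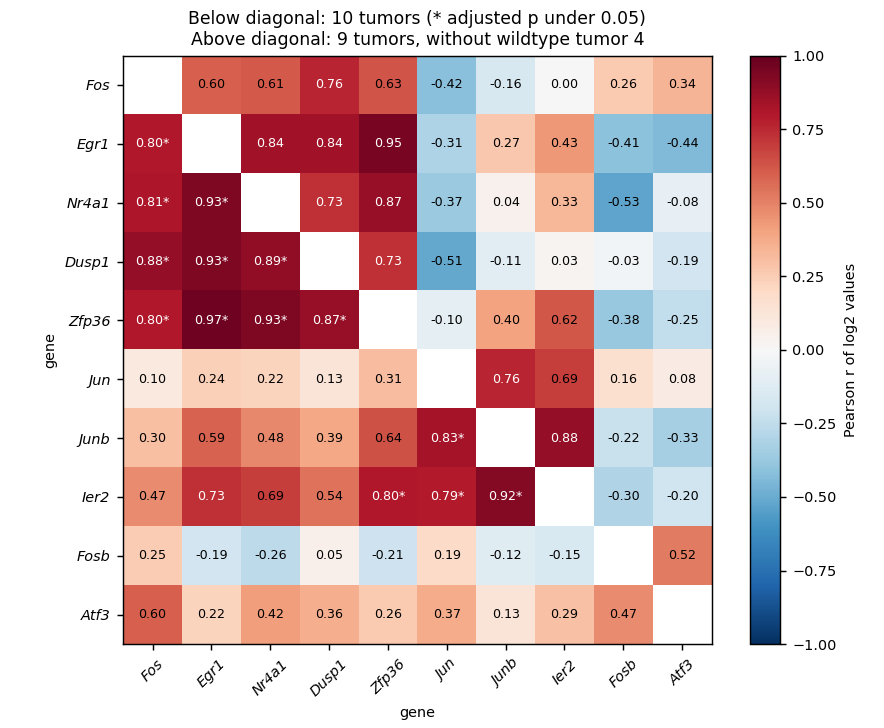
Pearson r of log2 values for each pair of genes, over 10 tumors below the diagonal (asterisk, adjusted permutation p under 0.05) and over 9 tumors without wildtype tumor 4 above it. The block of *Fos*, *Egr1*, *Nr4a1*, *Dusp1* and *Zfp36* holds r of 0.80 to 0.97 below the diagonal and 0.60 to 0.95 above it, and its pairs with *Jun*, *Junb* and *Ier2* average 0.44 below and 0.01 above.

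The mean deviation of the 5 co-varying genes *Fos*, *Egr1*, *Nr4a1*, *Dusp1* and *Zfp36* was 0.62, 0.03, -0.65, 1.30 and 0.21 in wildtype tumors and -0.33, -0.58, -0.05, -0.28 and -0.26 in gene trap tumors. Both the highest and the lowest tumors were wildtype. The means were 0.30 ± 0.72 and -0.30 ± 0.19 (SD, n = 5 each), a difference of -0.60, which was -0.35 without wildtype tumor 4 and -0.53 without gene trap tumor 2. For *Jun*, *Junb* and *Ier2* the difference was -0.11, which was 0.06 without wildtype tumor 4 and -0.24 without gene trap tumor 2. These genes were grouped after their values were seen, so no test is given.

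Immediate early genes varied more between tumors than most genes did. The SD of log2 values around the group means had a median of 0.52 over the 10 genes, against 0.25 over all tested genes and 0.18 over the 14122 genes with a mean of at least 100. *Fosb* was the most variable (0.82, percentile 96.4 of tested genes), followed by *Egr1* (0.74, percentile 94.8). *Jun* was the steadiest, at 0.37 and percentile 69.2.

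The spread also differed in size between the groups for some of them. The log2 SD of *Zfp36* was 0.71 in wildtype and 0.11 in gene trap tumors, a ratio of 6.39 that 0.133% of tested genes exceeded. The corresponding ratio was 4.49 for *Nr4a1* (exceeded by 0.494% of tested genes) and 4.04 for *Egr1* (exceeded by 0.765%). It was 1.98 for *Dusp1* and 1.39 for *Fos*, while *Jun* (0.912), *Atf3* (0.861) and *Fosb* (0.818) were less spread in wildtype tumors. Over the 10 genes 7 had the larger SD in wildtype tumors, and 40.5% of all tested genes did. The count was 4 of 10 without wildtype tumor 4, against 40% of all tested genes. The ratio was then under 1 for *Fos* (0.996), *Ier2* (0.96) and *Junb* (0.876). Without that tumor the ratio was 5.6 for *Zfp36*, 3.29 for *Nr4a1* and 3.08 for *Egr1*, and 1.3 for *Dusp1*. These ratios are a description of 5 tumors per group and were not tested.

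**Figure D4:**
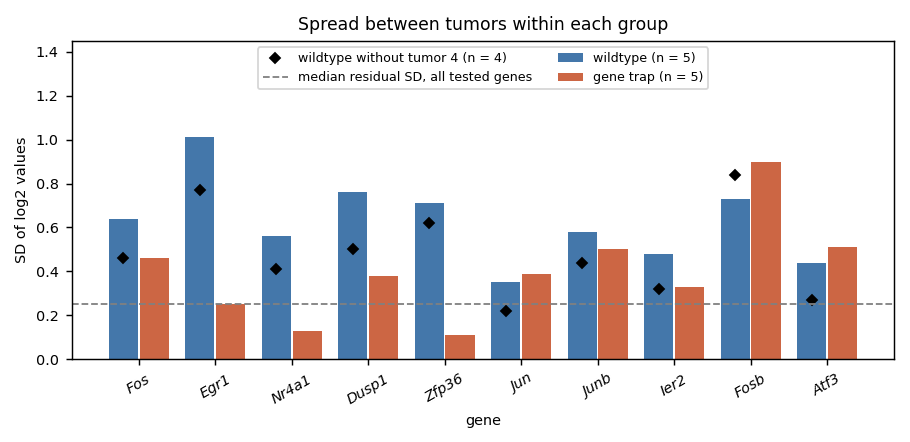
SD of log2 values of each gene within 5 tumors of wildtype x PyMT (blue) and 5 of gene trap x PyMT mice (orange), with diamonds for the wildtype SD of 4 tumors without tumor 4 and a dashed line at 0.25, the median SD around the group means over all tested genes. The gene trap bars of *Nr4a1* and *Zfp36* lie under the line, and the blue bars lie above it for all 10 genes.

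All other tested genes were ranked by the r of their log2 values with the early gene mean over the 10 tumors. Of the 10 highest, 6 were on the wider lists described below. These lists, heat shock and hypoxia genes included, hold 144 of 21034 tested genes. They were written with earlier results of these data known, so the overlap is a description only. *Rasd1*, a small RAS-like GTPase, had the highest r (0.98, and 0.93 without wildtype tumor 4), and its normalized count was 186 to 821 in wildtype tumors, highest in tumor 4, and 234 to 326 in gene trap tumors. *Csrnp1*, an AXIN1-induced nuclear protein, followed with r = 0.97 (190 to 650 in wildtype and 215 to 255 in gene trap tumors). *Btg2*, an antiproliferative p53 target, had r = 0.93 and counts of 1422 to 5730 in wildtype and 1511 to 2018 in gene trap tumors. For each of these 3 genes the lowest wildtype tumor lay below every gene trap tumor, and wildtype tumor 4 was the highest. The next were *Nfkbiz* (0.92), *Gadd45g* (0.92) and *Errfi1* (0.91). *Errfi1*, which encodes the EGFR inhibitor MIG6, was 4129 to 19836 in wildtype tumors, highest in tumor 4, and 5020 to 6919 in gene trap tumors, with the same overlap. *Rab30* (0.90), *Bhlhe40* (0.89), *Ggt7* (0.89) and *Hmgcll1* (0.88) completed the 10. The r of all tested genes had a median of 0.01 and quartiles of -0.24 and 0.25.

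Over all wider lists, 4 of 144 tested genes (2.78%) had an unadjusted limma p under 0.05, against 2.28% of all tested genes, and 2 (1.39%) did not overlap between the groups, against 0.528%. Of these lists, feedback inhibitors of MAP kinase and growth factor signaling had the highest median r with the early gene mean, 0.62 over 15 genes with 14 positive. *Errfi1* and *Spry1* (0.86) were highest and *Socs1* lowest (-0.10). Of these 15, 10 had a negative log2 fold change, the median was -0.04, and *Dusp5* alone had an unadjusted limma p under 0.05. *Dusp5*, a nuclear phosphatase for ERK, was 826 to 1823 in wildtype and 693 to 760 in gene trap tumors, which did not overlap. Its log2 fold change was -0.62 (SE 0.17, unadjusted limma p = 0.00372, exact permutation p = 0.00794), and its r with the early gene mean was 0.81, or 0.40 without wildtype tumor 4.

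Secreted and signaling early genes had a median r of 0.53, with 25 of 26 positive, and 20 of 26 had a negative log2 fold change (median -0.08). *Gadd45g* and *Arc* (0.84) were highest and *Ccl2* lowest (-0.09). *Sik1*, a kinase induced by cAMP that restrains CREB signaling, was 2523 to 4967 in wildtype and 1805 to 2782 in gene trap tumors, with a log2 fold change of -0.56 (SE 0.18, unadjusted limma p = 0.0106, exact permutation p = 0.0397). Early transcription factors and nuclear proteins had a median r of 0.49 with 17 of 20 positive, from *Csrnp1* and *Btg2* to *Klf2* (-0.42), and 12 of 20 had a negative log2 fold change (median -0.10). The NF-kappaB feedback and mRNA decay genes had a median r of 0.50 over 8 genes, led by *Nfkbiz* and *Tnfaip3* (0.70) with *Nfkbie* lowest (-0.25), and a median log2 fold change of -0.03.

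The family relatives of the 10 genes came next. Other AP-1 and ATF genes had a median r of 0.30 over 15 genes, led by *Maff* (0.64) and *Crem* (0.60), with *Atf4* lowest (-0.43), and a median log2 fold change of -0.01. *Fosl2* was 2748 to 5048 in wildtype and 2661 to 3245 in gene trap tumors (log2 fold change -0.32, SE 0.15, unadjusted limma p = 0.0494, exact permutation p = 0.119). The other EGR and NR4A genes with the NAB corepressors had a median r of 0.39 over 6 genes, led by *Egr3* (0.82) and *Egr2* (0.69) with *Nab2* lowest (-0.16), and 5 of 6 had a negative log2 fold change (median -0.17). *Egr2*, a close relative of *Egr1*, was 153 to 225 in wildtype and 120 to 145 in gene trap tumors. These ranges did not overlap, as for 0.528% of all tested genes, with a log2 fold change of -0.41 (SE 0.14, unadjusted limma p = 0.0126, exact permutation p = 0.00794).

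Factors and kinases upstream of the response were examined as well. *Srf* had an r of 0.84 with the early gene mean (755 to 1048 in wildtype and 778 to 897 in gene trap tumors), followed by *Mrtfa* (0.55), and *Mrtfb* was lowest (-0.05) among the 6 genes of serum response factor and its partners, whose median log2 fold change was -0.04. The 22 RAS, ERK, JNK and p38 pathway genes had a median r of 0.25 and a median log2 fold change of -0.02, with *Map2k1* (0.55) and *Araf* (0.42) highest and *Map2k6* lowest (-0.20). After Benjamini-Hochberg adjustment over all genes (adjusted p of 0.9997 for *Dusp5*, *Sik1*, *Fosl2* and *Egr2*), 0 genes of any of these lists had a limma p under 0.05. At an unadjusted p under 0.05 there were 0 among the early transcription factors, the NF-kappaB genes, the upstream factors and the kinases. Without wildtype tumor 4 the median r was 0.38 for the feedback inhibitors, 0.31 for the secreted and signaling genes, 0.17 for the NF-kappaB genes and 0.13 for the kinases. It was 0.05 for serum response factor and its partners, 0.03 for the EGR and NR4A genes, -0.05 for the AP-1 and ATF genes and -0.07 for the early transcription factors. Single genes of the last list kept a high r without that tumor, among them *Csrnp1* (0.87), *Btg2* (0.78) and *Bhlhe40* (0.76), and the r of the list's log2 summed count was 0.91 with it and 0.62 without it. *Fosl1*, *Egr4*, *Ereg*, *Cxcl2* and *Rps6ka4* were not analysed here, and *Il6* was under the minimum mean of 10.

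**Figure D5:**
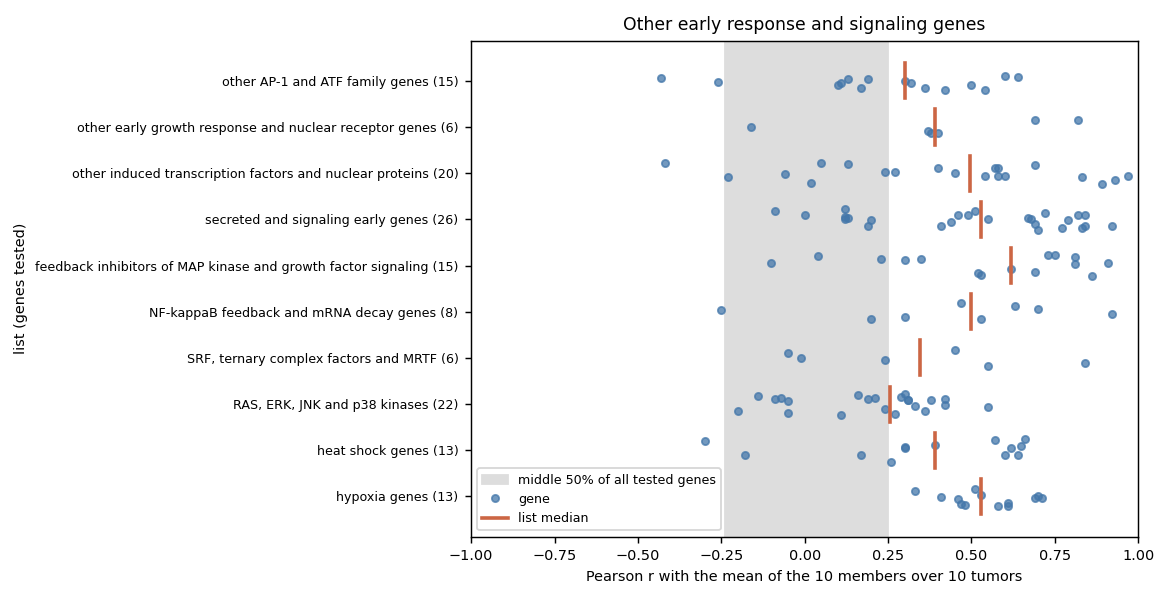
Pearson r over 10 tumors between each gene of a list and the early gene mean, with 1 row per list, 1 point per gene, a vertical bar at the list median and a gray band from -0.24 to 0.25 between the quartiles of all tested genes. The medians run from 0.25 for the kinases to 0.62 for the feedback inhibitors.

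Heat shock and hypoxia genes were set beside the early gene mean. Heat shock genes had a median r of 0.39 with 11 of 13 positive, led by *Hspa8* (0.66) and *Hspa1a* (0.65), with *Hspe1* lowest (-0.30). *Hspa1a*, the inducible chaperone, was 490 to 2626 in wildtype tumors, highest in tumor 4, and 682 to 1282 in gene trap tumors, and without wildtype tumor 4 its r was 0.08 and the median r of the list 0.02. Hypoxia genes had 13 of 13 positive, a median r of 0.53 and of 0.32 without that tumor, with *Vegfa* (0.71) and *Slc2a1* (0.70) highest and *Pdk1* lowest (0.33). Neither list held a gene with an unadjusted limma p under 0.05 between the groups, and the median log2 fold changes were -0.13 and -0.05. The part of heat shock or hypoxia in the early gene values was not tested.

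Markers of fibroblasts were low where the early genes were high. All 8 (*Col1a1*, *Col1a2*, *Col3a1*, *Dcn*, *Lum*, *Pdgfra*, *Pdgfrb* and *Fap*) had a negative r with the early gene mean, with a median of -0.62, and of -0.27 without wildtype tumor 4. Their summed counts were 39804 in wildtype tumor 4 and 60986 to 85483 in the other wildtype tumors, and 52801 to 121680 in gene trap tumors. The 8 epithelial markers had a median r of 0.13, the 8 endothelial markers -0.26 (sums 2910 to 5097 and 2686 to 4762), the 8 macrophage markers -0.26 (11350 to 16620 and 11253 to 15013) and the 7 tested T and NK cell markers -0.11. The 4 tested neutrophil markers had a median r of 0.16, and the 3 adipocyte, 5 skeletal muscle and 2 B cell markers had medians of -0.33, -0.17 and -0.20. Without wildtype tumor 4 the medians were -0.52 for macrophage and -0.54 for adipocyte markers, both farther from 0 than that of fibroblast markers, and 0.05 for endothelial markers, whose sign turned. They were -0.14 for epithelial, -0.13 for T and NK cell, 0.18 for neutrophil, -0.33 for skeletal muscle and 0.01 for B cell markers. Of the 5 erythrocyte genes, all had a positive r, with a median of 0.35 (0.46 without that tumor), and their sum was 4813 to 64631 in wildtype and 4217 to 22914 in gene trap tumors. None of the markers used had a value of 0 in any tumor. The part of cell composition in the early gene values was not tested.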

How the data were processed

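Groups came from the labels, 5 tumors each, and 6 columns of the table that matched no label were not used. The labels say control and genetrap, and the columns used are named Con and Hypo with a number. Con was read as control, and Hypo as gene trap because the study calls those mice hypomorph. RNA was extracted with Trizol for stranded total RNA libraries, and the submitters' processing notes name Partek, STAR 2.7.8a, DESeq2 and build mm39. The authors deposited a normalized signal per gene, estimated counts scaled between tumors. Against the geometric mean over the 10 tumors, column median ratios were 1.005 to 1.006, and 0.512% of values were whole numbers (tolerance 1e-06). Read numbers and depth were thus out of reach, and counting intervals are not given. Such scaling equalizes the typical gene between tumors.

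Symbols were found for 22899 (97.0%) of 23609 identifiers. Values were used as log2(value + 1), which understates the change of low genes. The 21034 genes with a mean of at least 10, all 10 members among them, were fitted with limma 3.58.1 (R 4.3.3, empirical Bayes with variance trend) and adjusted by the Benjamini-Hochberg method at 0.05. Single genes were tested by exact permutation over 252 arrangements, and pairs by permutation of tumors (scipy 1.17.1, Python 3.11.15), after tests on simulated data. P-values measure the spread between these tumors, which the labels do not state to be 1 per animal. Transcript lengths and gene types came from GENCODE release M21 and promoters from RefSeq (GRCm38.p6), another build than that of the values, so no other coordinates are given. Figures were drawn with matplotlib 3.10.9.

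Members and lists were chosen with earlier results of these data known. Named genes were the members, the 10 genes most like their mean, the 2 highest and 1 lowest by r of each wider list, those at an unadjusted p under 0.05, and *Resf1*. Alternatives were other pseudocounts, filters and scalings (quantile, TMM), no variance trend, weights per tumor, a block by replicate number, leaving out each tumor, Spearman's rho, deviations from group means, and a median or z score in place of the mean. Count models were left out, since whole reads were not recovered. Some listed marker genes are not reported here.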

Additional observations from a re-analysis of the deposited data

Results flagged for a closer look

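Each of the 10 genes, and the early gene mean, were examined within each group for a tumor far from the other 4. The measure was the gap to its nearest neighbor as a share of the group's range (critical value 0.71). Of 22 sets of 5 values, 2 passed, where chance gives 1 in 20, or 1.1, if the values are normal. The sets come from the same tumors and co-vary, so they are not independent. Gene values were examined unlogged and the early gene mean on the log2 scale, so this rate is only a rough guide. *Egr1* was 595.2 in gene trap tumor 3 where the rest of its group held 390.2 to 434.6 (share 0.783). *Zfp36* was 938.2 in gene trap tumor 1 where the rest held 1088 to 1138 (share 0.753). Both lie in groups whose range is narrow. Wildtype tumor 4, the highest tumor for 9 of 10 genes, did not pass for any of them.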

How the results depend on the processing

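By limma, 0 genes passed after adjustment in each of 19 alternative fits. Unadjusted, 479 genes had a p under 0.05, with 307 to 694 when 1 tumor was left out (307 without wildtype tumor 4) and 326 to 580 otherwise. The lowest adjusted p of a member in any fit was 0.9786. Of 190 alternative log2 fold changes of the members, 175 kept their direction and 15 reversed, all of *Fosb*, *Jun* and *Junb*. *Jun* reversed with TMM factors (-0.0012) and with weights per tumor (-0.13). When 1 tumor was left out, *Fosb* ran from -0.22 to 0.33, *Jun* from -0.11 to 0.13 and *Junb* from -0.33 to 0.04. *Fos* kept its direction throughout, and its unadjusted limma p was 0.00214 to 0.0558 in these fits, over 0.05 in 2 of them and in 3 of all 19. The cause of these changes was not tested.

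The mean r over the 45 pairs was 0.34 by Spearman's rho, 0.18 to 0.54 with 1 tumor left out, and 0.26 without both wildtype tumor 4 and gene trap tumor 2. The pairs past the threshold numbered 4 to 22 with 1 tumor left out, 5 without both and 10 to 15 otherwise. The difference of the early gene mean was -0.50 to -0.16 with 1 tumor left out. As z scores, on another scale, the early gene mean was 1.76 in wildtype tumor 4, -0.64 in gene trap tumor 1 and -0.49 in gene trap tumor 3. Leaving out both tumors, and leaving 1 out of the early gene mean, were chosen after the data were seen.

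Tumors with the same replicate number differ in genotype and so came from different animals, and deviations from the group means did not pair them (correlations 0.10, -0.00, -0.16, 0.15 and -0.14). With the number as a block in limma, 0 genes passed adjusted, 426 unadjusted, and the members' median log2 fold change was -0.32 with 8 lower and 1 at an unadjusted p under 0.05. Depth is unknown and set no limit that could be computed.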

Other observations

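The genes that ran most strongly against the early gene mean were of another kind. Of the 20 named genes with the lowest r, 9 were annotated as TEC (transcripts still to be experimentally checked), 3 as lincRNA, 3 as antisense and 5 as protein coding, where TEC genes made up 6.46% and protein-coding genes 69.1% of the genes tested. *Gm42548*, a TEC gene, had r = -0.95 (-0.85 without wildtype tumor 4) and was 103 to 229 in wildtype tumors, lowest in tumor 4, and 180 to 278 in gene trap tumors. *Cd80*, a ligand that costimulates T cells, had r = -0.93 and was 14.1 to 46.7 in wildtype tumors, again lowest in tumor 4, and 29.5 to 54.5 in gene trap tumors. Over all 1359 tested TEC genes the median r was -0.12, and -0.04 without wildtype tumor 4.

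Processed pseudogenes ran the other way. The 2228 tested had a median r of 0.26, and 0.34 without wildtype tumor 4, and 18.7% had a negative r, against 50.3% of 14545 protein-coding genes. Gene trap tumor 2 had the lowest share of counts in pseudogenes of all kinds, 3.33% against 4.34% to 4.91% in the other tumors. The r of the processed pseudogenes was not computed without that tumor. These genes were looked at after their values were seen, the 10 tumors share 1 normalization, and no test was run on them.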
